A study of Drosophila melanogaster with 6 samples.

Results

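The proteasome subunit genes of Drosophila melanogaster were taken as every gene whose RefSeq symbol begins with Prosalpha, Prosbeta, Rpn or Rpt followed by a digit. The rule found 48 of the 16959 genes that could be matched to the deposited tables, and 76 of the 34115 transcripts listed there. They comprised 14 canonical core particle genes, 18 canonical regulatory particle genes, 11 core particle paralogs and 5 regulatory particle paralogs, a paralog being a gene whose number is followed by T or R. The transcript with the greatest base mean stood for each gene, the base mean being the mean over libraries of normalised read counts.

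The proteasome is the protease that degrades ubiquitin-tagged proteins in the cytosol and nucleus of every eukaryotic cell. Its core particle is a barrel of stacked alpha and beta rings with the proteolytic sites inside the beta rings, and its regulatory particle binds ubiquitin chains, removes them and threads the unfolded substrate into the barrel. The subunits act in fixed proportions and their genes are generally expressed together, in yeast under Rpn4 and in animals under transcription factors of the Cap'n'collar family. In neurons the proteasome is known for roles in synapse growth and the turnover of synaptic proteins. Several Drosophila subunits have paralogs that are expressed in the male germ line.

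The study asked how transcript levels in the larval nervous system respond to depletion of dSET2, the histone H3 methyltransferase for lysine 36 that the gene Set2 encodes. The labels describe 3 control samples of genotype dSET2 RNAi/+; Canton S, in which no driver is named, and 3 knockdown samples of genotype dSET2 RNAi/+; elavC155GAL4, in which GAL4 under elav control drives the RNAi transgene in neurons. Both groups carry the RNAi transgene, and the labels do not state whether glia and other non-neuronal cells of the knockdown are spared. Each sample was the pooled tissue of 15 larvae in the third instar, reared at 25 °C and dissected at 84 h AEL (after egg laying).

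The deposited files are 2 tables of the authors' own comparison, one from edgeR with its F test and one from DESeq2 with its Wald test, and list no values by sample. The base means and fold changes could nevertheless be written as whole reads in 4 libraries, called A, B, C and D, rather than the 6 samples of the labels. Their effective sizes, the totals that edgeR divided by, were 14198000, 10613000, 8405000 and 6974000 reads to the nearest 1000. Fold changes are positive where A, C and D were above B, and negative where B was above them. Neither the tables nor the labels say which side is the knockdown, so no value below is given as a rise or fall upon knockdown, and the side of B has no replicate. The targeted gene Set2 has 2 listed transcripts, so its reads carry the limit described further on and are not a level of the gene. Its transcript NM_132660 had 10, 36, 21 and 0 reads in A, B, C and D, and the other was at 0. Its log2 fold change was -1.65 with an unadjusted p of 0.0388 (adjusted, 1) in the authors' deposited table from edgeR. The tissue label was met in every library, although for glia this rested on repo. The 7 neuronal markers, among them elav and nSyb, summed to 483, 437, 690 and 833 CPM (reads scaled to a common library total) in A, B, C and D. The sum was thus lowest in B. The neuronal Rdl was at 0 in D. The 4 glial markers summed to between 506 and 684 CPM. Nearly all of this was repo, with 503, 503, 562 and 682 CPM in A, B, C and D. The other glial markers, moody, nrv2 and Eaat1, had at most 25 reads in a library. Library B stood apart in markers of other tissues. The 5 muscle markers summed to 3980 CPM in B and to between 205 and 1723 in the others, 4 fat body markers to 2214 against between 4.16 and 61.6, and 6 salivary gland markers to 141 against between 2.04 and 3.21. A single gene carried most of the muscle and fat body sums in B, Act57B with 3974 CPM and Lsp1alpha with 2214. Act57B, Lsp1alpha and repo have 1 listed transcript, whereas the other muscle, fat body and glial markers have 2 or more. Low reads of those other markers therefore carry the limit set out below for such genes, and are not levels of the gene. Of the other fat body markers, Lsp1beta had 2 reads in B, Lsp2 had 1, 0, 2 and 0 reads in A, B, C and D, and Fbp1 was at 0. The part of this RNA in the results below was not tested, and fewer cells of a type and less RNA per cell cannot be told apart in these bulk samples.

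No measured proteasome subunit passed the authors' tests at the threshold used here, an adjusted p under 0.05. Of the 32 canonical subunits, 21 had a base mean of at least 10, and the authors' deposited table from edgeR called 0 of these 21, where 0.868% of all 34115 transcripts were. In the authors' deposited table from DESeq2 the count was also 0 of 21, against 1.36% of the 15342 transcripts with any reads and 2.26% of the 9221 that were given an adjusted p. The number with an unadjusted p under 0.05 was 0 in both tables, where 8.77% of the 7180 transcripts that reached the same base mean had one in edgeR. The smallest unadjusted p among the 21 was 0.669 in the authors' deposited table from edgeR and 0.734 in that from DESeq2.

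The differences between the 2 sides were small beside their errors. In the authors' deposited table from edgeR the median log2 fold change was 0.05 over the 10 measured core particle genes and 0.04 over the 11 regulatory particle genes, where the median over all 7180 transcripts was 0.01. In that deposited table of the authors, 14 of the 21 genes had a positive value, against 51.3% of all transcripts at that base mean and 56.2% of the 105 genes with base means of 8000 to 17000. This count rested on library A: without it, ratios of mean CPM were positive for 3 of 21 genes and the medians were -0.08 for the core and -0.08 for the regulatory particle. Leaving out C gave 16 positive genes and leaving out D gave 21.

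**Figure D1:**
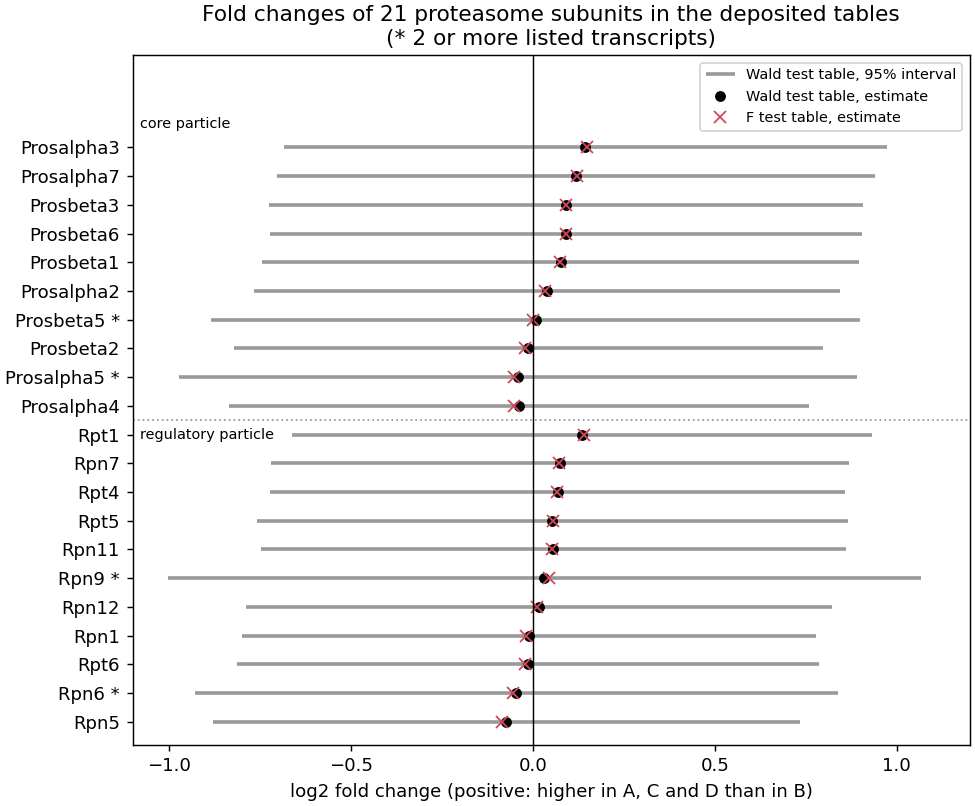
Log2 fold change (horizontal axis, positive when higher in libraries A, C and D than in B) of the 21 canonical subunits with a base mean of at least 10. Black points and grey bars are the estimates of the authors' Wald test table (DESeq2) with 95% intervals from their standard errors, crosses are those of their F test table (edgeR), and every interval spans 0.

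The intervals around these differences were wide. Standard errors of the log2 fold change ran from 0.40 to 0.42 for the 17 subunits with 1 listed transcript in the authors' deposited table from DESeq2. The 95% intervals computed from them reached from -0.88 at the lowest, for Rpn5, to 0.97 at the highest, for Prosalpha3. A difference of close to 1 on the log2 scale for a single subunit was thus within what these intervals allow. DESeq2 estimates were smaller in size than those of edgeR where reads were few, as for Prosbeta7 at -0.13 against -3.10. Whether they were shrunk is not stated in the sources used here, so the intervals may be too narrow. The estimates of the subunits themselves lay much closer together, from -0.09 for Rpn5 to 0.15 for Prosalpha3 in the authors' deposited table from edgeR. Of the 88 other genes with a base mean of 8000 to 17000, 29.5% had a log2 fold change within that range. The middle 50% of the 17 subunits lay between -0.02 and 0.09 and that of the 88 other genes between -0.13 and 0.23 in the same deposited table of the authors, while the median standard error of the others was 0.41. The 88 genes are of many kinds, and the members were not drawn from them, so this is a description and not a test.

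The alpha ring forms the outer rings of the barrel and holds its gate. It had 7 genes, of which Prosalpha2, Prosalpha3, Prosalpha4 and Prosalpha7 have 1 listed transcript. Prosalpha3 had 1787, 1431, 1211 and 1761 CPM in A, B, C and D. It was high in A and D and low in C, with B between them, and had the highest log2 fold change of all canonical subunits with a base mean of at least 10, at 0.15 (unadjusted p = 0.669) in the authors' deposited table from edgeR. Prosalpha7 had 1487, 1217, 1035 and 1451 CPM in the same order and followed the same pattern, and the authors' deposited table from edgeR gives it a log2 fold change of 0.12. Prosalpha2 had 1524, 1244, 1101 and 1196 CPM. Its value in B was above those in C and D, and it had 0.03 as its fold change on the log2 scale in the authors' deposited table from edgeR. Prosalpha4 had 1294, 1140, 1018 and 987 CPM, so that both C and D were below B, and had the lowest value of the core particle genes measured at this level, -0.05 in the authors' deposited table from edgeR. In each of the 4 genes the value in B lay within the range of A, C and D.

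The beta ring carries the active sites. Its caspase-like subunit Prosbeta1 had 1110, 929, 767 and 1055 CPM in A, B, C and D, and its trypsin-like subunit Prosbeta2 had 1305, 1090, 933 and 980. In both genes A was highest and C lowest, and B lay between the others. Their log2 fold changes were 0.07 and -0.02 in the authors' deposited table from edgeR, with unadjusted p of 0.836 and 0.948. The chymotrypsin-like subunit Prosbeta5, the main target of proteasome inhibitors, has 2 listed transcripts and far fewer reads, which are taken up with the other genes of that kind further on. Prosbeta3, a non-catalytic subunit, had 1172, 899, 796 and 908 CPM and, in the authors' deposited table from edgeR, a log2 fold change of 0.09. Prosbeta6, also non-catalytic, had 1455, 1151, 1007 and 1217 CPM and the same value of 0.09 in that deposited table of the authors. Library C was lowest in 4 of the 4 beta ring genes with 1 listed transcript.

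The ATPases Rpt1 to Rpt6 form the ring that unfolds substrates and feeds them into the core. Rpt1 had 1648, 1384, 1314 and 1612 CPM in A, B, C and D and the highest log2 fold change of the regulatory particle at this level, 0.14 (unadjusted p = 0.688) in the authors' deposited table from edgeR. Rpt4 had 1297, 1109, 1041 and 1146 CPM and 0.07 in that deposited table of the authors. In both, A and D were above B and C was below it. Rpt5 had 1221, 970, 998 and 805 CPM, and Rpt6 had 1227, 1052, 984 and 897. Here D was the lowest library instead, and the log2 fold changes were 0.06 for Rpt5 and -0.02 for Rpt6 in the authors' deposited table from edgeR. Rpt2 and Rpt3 have 2 listed transcripts each and could not be measured at this level.

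The non-ATPase subunits recognise and process ubiquitin chains and hold the lid and base together. Rpn1, a base scaffold that binds ubiquitin and shuttle receptors, had 1963, 1744, 1708 and 1494 CPM in A, B, C and D. These were the highest CPM of the 17 subunits in libraries A, B and C, although Rpn1 is also the longest of the 17 at 3.04 kb of exonic sequence. Its log2 fold change was -0.02 in the authors' deposited table from edgeR. Rpn11, the deubiquitinase of the lid, had 1613, 1327, 1176 and 1344 CPM and, in the authors' deposited table from edgeR, a log2 fold change of 0.05. The lid scaffold subunits were Rpn5, Rpn7 and Rpn12. Rpn5 had 1309, 1219, 1247 and 891 CPM, with D well below the other libraries, and the lowest log2 fold change of the 21 genes, -0.09 (unadjusted p = 0.807) in the authors' deposited table from edgeR. Rpn7 had 1080, 924, 854 and 980 CPM, and Rpn12 had 1054, 870, 776 and 800. Their log2 fold changes were 0.07 and 0.01 in the authors' deposited table from edgeR.

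**Figure D2:**
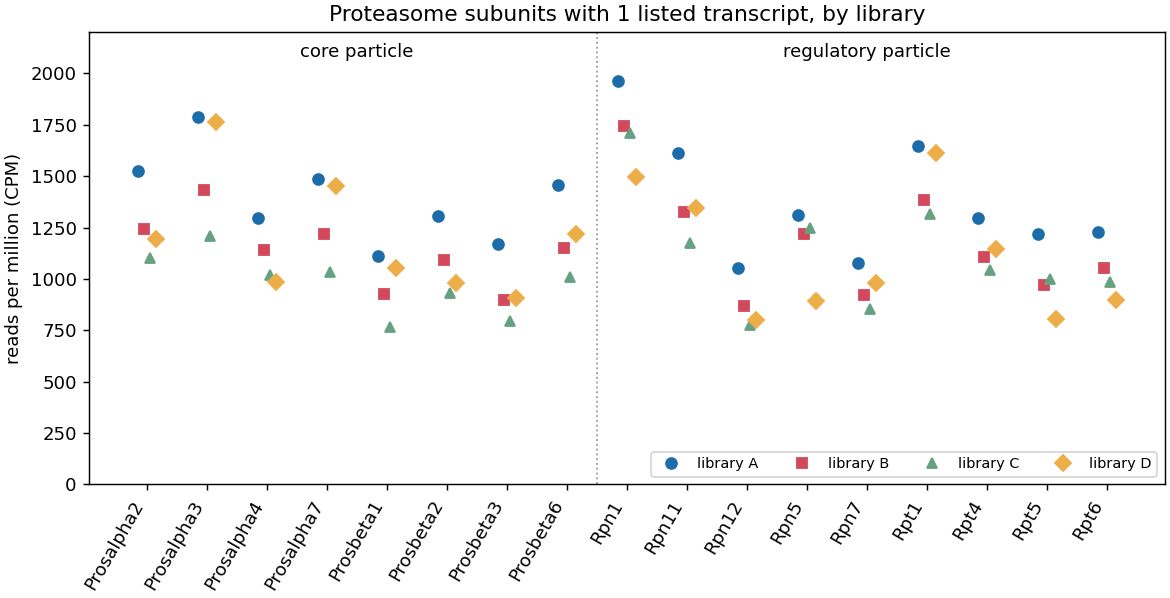
CPM (vertical axis, linear from 0) of the 17 canonical subunits with 1 listed transcript, with 1 point for each of the 4 libraries recovered from the tables and core and regulatory particle separated by the dotted line. Library A is highest for all 17 genes, B always lies between other libraries, and C or D is lowest.

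Across these 17 genes the same library was highest, while the order of the other 3 changed from gene to gene. Library A had the highest CPM in 17 of 17 subunits, where it was highest in 44.8% of the 105 genes with base means of 8000 to 17000, the 17 included. Library B lay within the range of A, C and D in 17 of 17. It lay outside that range in 33.3% of the 105 genes and in 47.5% of 7159 transcripts, those at base mean 10 or above with recovered reads. The lowest library was C in 12 genes and D in 5, and D was above B in 9 of 17 and C in 2. The ratio between the highest and the lowest library ran from 1.25 for Rpt4 to 1.52 for Rpt5, with a median of 1.38. Summed over the 17 genes, the subunits took 23544, 19698, 17966 and 19524 CPM in A, B, C and D. The sums therefore spread further among A, C and D, which stand on the same side of the comparison, than B stood from any of them.

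Levels between genes were compared per kilobase of exonic sequence, as the mean over the 4 libraries. Core particle genes ranged from 944 CPM per kb for Prosalpha4 to 1590 for Prosalpha3, and regulatory particle genes from 568 for Rpn1 to 1130 for Rpn11. By role, the median level per kb was 1353 CPM in the alpha ring, 1087 in the beta ring, 762 in the ATPases and 689 in the non-ATPases. Prosalpha3 was the highest per kb in each of the 4 libraries, at 1837, 1470, 1244 and 1810 CPM per kb in A, B, C and D. Rpn1 was the lowest in A, B and C, and Rpn5 in D at 470 CPM per kb. The median of the 8 core genes exceeded that of the 9 regulatory genes in each library, with ratios of 1.62, 1.54, 1.40 and 1.80 in A, B, C and D. The ranges overlapped by 1 or 2 genes: the number of regulatory genes above the lowest core gene was 1 in A and B and 2 in C and D. The coverage along transcripts is unknown, the core genes are also the shorter ones (0.852 to 1.18 kb against 0.995 to 3.04 kb), and the part of length in this gap was not tested.

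The library ratios went with exonic length over the 17 subunits, among which the core genes are also the shorter ones. In C the median log2 ratio to library B was -0.21 for the core and -0.09 for the regulatory genes. The parts of length and of particle in these ratios were not tested apart. The median log2 ratio to library B was 0.26 for A (range 0.10 to 0.38), -0.16 for C (-0.28 to 0.04) and 0.01 for D (-0.45 to 0.30). In C, the short Prosbeta1 (0.852 kb) stood at -0.28, whereas Rpt5 (1.63 kb) and Rpn5 (1.90 kb) stood at 0.04 and 0.03. In D, Rpn5 was the lowest at -0.45 and Prosalpha3 the highest at 0.30. Over the 17 genes, which share libraries and depth, Spearman's rho between exonic length and the log2 ratio to B was -0.63 for A, 0.90 for C and -0.50 for D. Over 86 other genes with 1 listed transcript and base means of 8000 to 17000 it was -0.59, 0.13 and -0.43, so that the relation for A and D was of like size among other genes and that for C was weaker there; the difference for C was not tested.

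**Figure D3:**
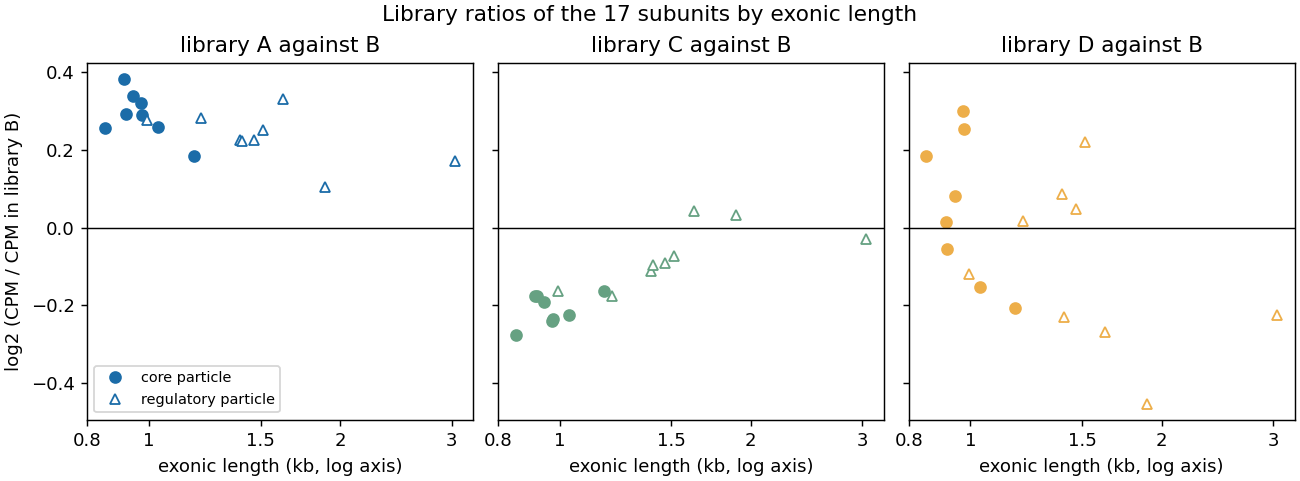
Log2 ratio of CPM in libraries A, C and D to CPM in library B (vertical axes) against exonic length in kb (horizontal log axes) for the 17 subunits with 1 listed transcript. Filled circles are core and open triangles regulatory particle genes; A lies above B throughout, and in C the ratio is lowest for the short core genes.

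Whether a subunit could be measured depended on how many of its transcripts the tables list. All 17 canonical subunits with 1 listed transcript had a base mean between 8403, for Rpn12, and 16566, for Rpn1. The 15 with 2 or more listed transcripts had base means of at most 245 on their highest transcript. Of these 15, 7 were listed at 0 on every transcript: Prosalpha1, Prosalpha6, Prosbeta4, Rpn3, Rpn10, Rpn13 and Rpt2. A further 4 lay above 0 and under 10, and the last 4 between 142 and 245. The 17 genes together held 830517 recovered reads and the 15 genes 3620.

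These 15 genes include subunits without which a proteasome cannot assemble, and nothing in the files says that their RNA is absent. In the Ensembl annotation the 15 genes have the same number of transcripts as in the tables, and between 73.8% and 97.5% of their exonic bases, with a median of 92.4%, lie in all transcripts of the gene. For Rpn13, one of the ubiquitin receptors, 0 of 1672 exonic bases lie in a single transcript. The tables were counted by transcript with featureCounts, per the submitters' processing notes, a program that by default leaves out reads that fall on more than one feature; the setting used is not given in the sources used here and its part was not tested. The same gap was present over the whole table: 19.4% of the 9611 genes with 1 listed transcript had a base mean of at least 1000, against 1.61% of the 7348 genes with 2 or more. The values of the 15 genes are therefore given as reads on the listed transcript and not as levels of the gene.

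**Figure D4:**
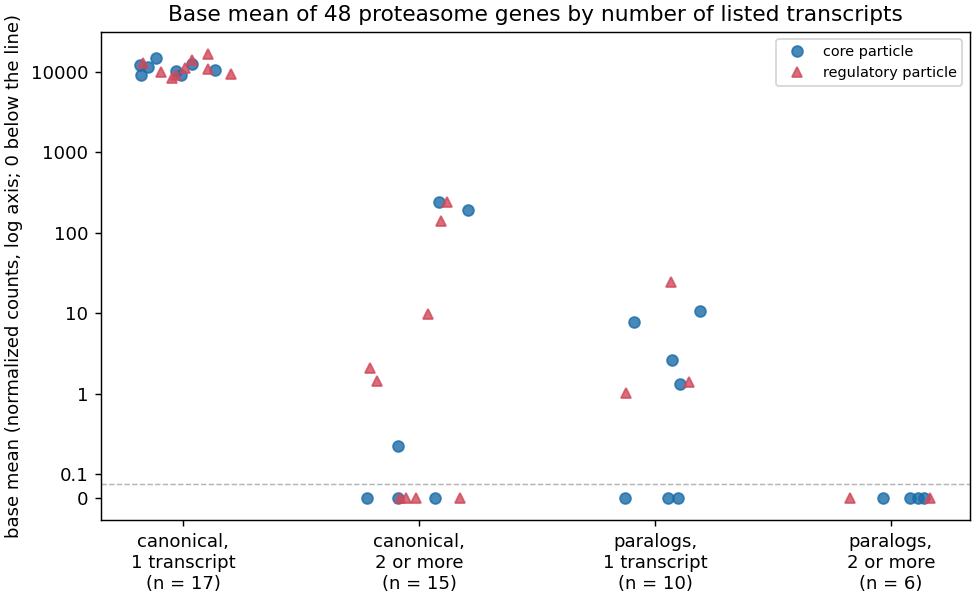
Base mean (normalised counts, log axis, with 0 drawn below the dashed line) of the 48 proteasome genes, split into canonical subunits and paralogs and by the number of transcripts listed. Canonical subunits with 1 transcript sit at 8403 or more, those with 2 or more at 245 or less, and paralogs at 24.2 or less.

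The 4 better covered of these transcripts were not called either. Prosalpha5, an alpha ring subunit, had 459, 279, 232 and 112 reads in A, B, C and D (32.3, 26.3, 27.6 and 16.1 CPM). The catalytic Prosbeta5 had 315, 210, 163 and 124 reads (22.2, 19.8, 19.4 and 17.8 CPM). Their log2 fold changes were -0.05 and 0.00 in the authors' deposited table from edgeR. Rpn6, the lid subunit that clamps the regulatory to the core particle, had 356, 273, 248 and 137 reads (25.1, 25.7, 29.5 and 19.6 CPM), and the lid subunit Rpn9 had 245, 155, 176 and 48 (17.3, 14.6, 20.9 and 6.88 CPM). In all 4 genes D was the lowest library and B lay within the range of A, C and D, and the log2 fold changes of Rpn6 and Rpn9 were -0.06 and 0.04 in the authors' deposited table from edgeR. Rpn9 in D, at 48 reads, stood furthest below its other libraries.

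The remaining reads were few. Rpn2, the other base scaffold, had 7, 20, 13 and 1 reads in A, B, C and D. Its log2 fold change was -1.36 (unadjusted p = 0.125) in the authors' deposited table from edgeR, from a base mean of 9.65. Rpn8, the partner of Rpn11, had 1, 2, 4 and 1 reads, and Rpt3 had 1, 2, 3 and 0. Prosbeta7 had a single read, in B. The exact Poisson interval of Rpn2 in B, 1.15 to 2.91 CPM, lay above those of A and D, and that of C, 0.824 to 2.64 CPM, lay above that of D, 0.0036 to 0.799 CPM. For Rpn8 and Rpt3 the intervals of the libraries overlapped, as in Rpn8 with 0.130 to 1.22 CPM in C and 0.0036 to 0.799 in D. Among second transcripts of these genes, NM_057854 of Prosalpha5 had 3 reads, all in B, and was the one with an unadjusted p under 0.05 (p = 0.0328, adjusted p = 1) in the authors' deposited table from edgeR. NM_166065 of Rpn6 had 16, 3, 4 and 5 reads, and NM_170088 of Rpn9 had 1 read, in B.

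The paralogs had few or no reads in the larval nervous system. Of the 16, 7 had reads, and 9 were listed at 0. Rpt6R, a paralog of the ATPase Rpt6, had the most, with 37, 32, 26 and 10 reads in A, B, C and D (2.61, 3.02, 3.09 and 1.43 CPM). Prosalpha4T1 had 12, 6, 21 and 4 reads (0.845, 0.565, 2.50 and 0.574 CPM), with C above the other libraries and its exact Poisson interval of 1.55 to 3.82 CPM above those of A, B and D, which ended at 1.48 or lower. Prosbeta2R2 had 9, 7, 3 and 11 reads, and was highest in D at 1.58 CPM.

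**Figure D5:**
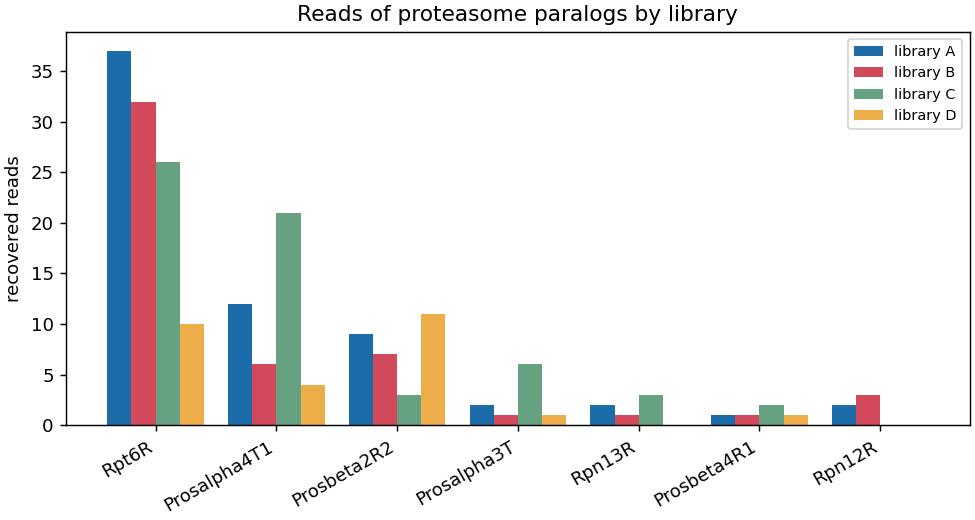
Recovered reads (vertical axis, linear from 0) of the 7 proteasome paralogs with any reads, 1 bar for each library. Rpt6R reaches 37 reads in A, Prosalpha4T1 has 21 in C, and the last 4 genes have 6 or fewer in every library.

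The other paralogs with reads had at most 6 in a library. Prosalpha3T had 2, 1, 6 and 1 reads in A, B, C and D, Prosbeta4R1 1, 1, 2 and 1, Rpn12R 2, 3, 0 and 0, and Rpn13R 2, 1, 3 and 0. Per kb, Rpt6R stood at 0.237% of Rpt6, Prosalpha4T1 at 0.133% of Prosalpha4, Prosbeta2R2 at 0.0587% of Prosbeta2, Prosalpha3T at 0.0193% of Prosalpha3 and Rpn12R at 0.0128% of Rpn12. Prosalpha6T, Prosbeta2R1 and Prosbeta5R1 have 1 listed transcript and 0 reads. A fixed floor of 3 reads a library stands at 0.211, 0.283, 0.357 and 0.430 CPM in A, B, C and D. The exact Poisson interval of 0 reads ends higher, at 0.260, 0.439 and 0.529 CPM in A, C and D. Prosalpha1R, Prosalpha4T2, Prosbeta4R2, Prosbeta5R2, Rpt3R and Rpt4R were at 0 too but have 2 listed transcripts, so that their 0 carries the limit described above. Prosalpha1 and Prosalpha1R are also near-identical copies, and reads of one cannot be told apart from reads of the other. Intervals and limits cover counting error only.

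The paralogs showed no difference between the 2 sides past the threshold. The 2 with a base mean of at least 10 had log2 fold changes of 1.18 for Prosalpha4T1 (unadjusted p = 0.253) and -0.33 for Rpt6R (unadjusted p = 0.672) in the authors' deposited table from edgeR. The 8 testis markers looked at beside them summed to 51.1, 39.9, 82.0 and 107 CPM in A, B, C and D, most of it from bol. Among testis markers with 1 listed transcript, can, a testis-specific subunit of the general transcription machinery, had 89, 42, 62 and 33 reads, sa had 2, 0, 3 and 0, and nht had 0, 1, 0 and 0. Besides bol, 4 markers have 2 or more listed transcripts. Of these, mia had 1, 2, 1 and 0 reads, Mst87F had 3, 0, 0 and 0, and aly and dj were at 0. The part of RNA from male germ cells in the paralog reads was not tested.

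Genes that work with the proteasome were not called either. Of 23 listed, 21 were matched, 10 had a base mean of at least 10, and 0 of the 10 were called or had an unadjusted p under 0.05 in either direction, where 0.868% of all transcripts were called. In the authors' deposited table from edgeR 9 of the 10 had a positive log2 fold change, with a median of 0.21, against 51.3% positive and a median of 0.01 over all transcripts at that base mean. For the 9 of the 10 with recovered reads, the number with a positive value was 9, and by ratios of mean CPM it was 7 without library A and 9 without C or D. Pomp, the chaperone of core particle assembly, had 760, 619, 586 and 750 CPM in A, B, C and D, and Sem1, the small lid subunit that the symbol rule does not reach, had 707, 566, 486 and 552. In both, A was highest and C lowest, as in the 4 beta ring genes with 1 listed transcript. Rad23 and Ubqn, shuttle receptors that carry ubiquitinated proteins to the proteasome, had 86, 29, 41 and 51 reads and 2763, 1335, 964 and 1740 reads. Their log2 fold changes, 1.15 (unadjusted p = 0.14) and 0.57 (unadjusted p = 0.184) in the authors' deposited table from edgeR, were among the largest of the list, but both genes have 2 or more listed transcripts. The transcription factors that act on proteasome genes could not be assessed: cnc, the Drosophila Nrf homolog, had 10, 14, 8 and 2 reads on 1 of its 16 listed transcripts, its partner maf-S had 4, 3, 0 and 0, and its inhibitor Keap1 had 1, 6, 2 and 1.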

How the data were processed

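RNA was sequenced from pooled larval central nervous systems. Per the submitters' processing notes, HISAT2, featureCounts, DESeq2 and edgeR were used with genome build dm3; versions, settings and the side of the fold change are not given in the sources used here. The authors deposited base means (a signal: counts divided by size factors), log2 fold changes with standard errors, log2 CPM, test scores (Wald and F) and p-values, unadjusted and adjusted.

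The members and lists were chosen with earlier results of these data known. No test was rerun: the authors' edgeR values stand in place of the planned edgeR test, called at an adjusted p under 0.05. Every member is accounted for; those named followed a fixed rule. Whole reads were recovered from the base means alone up to 30 (9921 of 9921 transcripts with 1 solution), and with log2 CPM and fold change up to 40000 (5400 of 5401; 20 above were not attempted). The recovery inverts the formulas by which the authors' edgeR run averages log2 CPM and fold changes, rewritten in Python; no count model was tested. Among transcripts with base means up to 30, the log2 CPM of 4960 of 4960 not used to fit the library sizes was matched within 1e-09. In simulated data, 40 of 40 transcripts with base means of 8000 to 17000 were recovered. The simulation used the same fitted settings as the recovery, so an error in those settings could not show. With shifted base means, 0 of 40 gave a solution. Symbols came from RefSeq (Release 6 plus ISO1 MT), matching 33994 transcripts; exonic lengths came from Ensembl BDGP6.54, and no coordinates are given because builds differ. Intervals are 95% (exact Poisson for reads). Replicates are separate samples per the labels, but the recovered libraries carry no label. Python 3.11.15, numpy 2.4.6, scipy 1.17.1 and pandas 2.3.3 were used. Alternatives were the authors' second table, stricter thresholds, base mean filters, weighting over transcripts, the authors' size factors and leaving out libraries.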

Additional observations from a re-analysis of the deposited data

How the results depend on the processing

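Of 82 alternative values, 81 kept their direction or moved by less than the spread between libraries (medians) or by a small factor (counts). Many of the 81 could not move. A stricter threshold or another adjustment leaves medians and positive counts as they are, and a stricter threshold cannot raise the count of called subunits. All 21 measured subunits also pass the base mean filter of 100. A further 32 values compare the authors' 2 fits of the same reads for single members. The value that moved was the number of canonical subunits with a positive log2 fold change, 14 of 21. It was between 3 (without library A) and 21 (without library D) when 1 library was left out. The median log2 fold change of the core then lay between -0.08 and 0.17, and that of the regulatory particle between -0.08 and 0.07. The count of called subunits stayed at 0 under each alternative run. Over all transcripts 296 were called, 208 in the DESeq2 table, 235 at an adjusted p under 0.01 and 304 when adjusted over base means of at least 10. The 32 members with reads had the same sign in both tables.

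No paired analysis was possible because the tables hold no values per labelled sample and the recovered libraries carry no replicate number. For the same reason the filter by edgeR on low counts and the leaving out of labelled replicates were not run; libraries A, C and D were left out instead, and B could not be, as it stands alone on its side. What limits the reads of the paralogs with 1 listed transcript, and of the subunits with 2 or more, was not tested. Leaving out libraries for the genes that work with the proteasome was added after the data were seen.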
